A study of Mus musculus with 9 samples.

Results

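Expression of 10 genes of the integrated stress response, *Atf3*, *Atf4*, *Atf5*, *Ddit3*, *Trib3*, *Chac1*, *Asns*, *Fgf21*, *Gdf15* and *Sesn2*, was compared across 9 RNA-seq libraries of mouse tibia. The members were found by gene symbol among the 18272 genes listed, and all 10 were present. Of these, 8 passed a low-count filter (10 counts or more in 3 or more of the libraries), as did 13960 of all genes. *Gdf15* and *Fgf21* did not pass it and are given as counts only.

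All mice were female C57BL/6J, aged 10 to 11 weeks when bought. The NGT group (normal glucose tolerance, n = 3) was injected with citrate vehicle and then given saline. The T1D group (n = 3) received 1 injection of streptozotocin (STZ), a toxin taken up by the insulin-producing beta cells, and then saline. The Lira group (n = 3) received the same STZ injection and then the incretin analog liraglutide (0.6 mg/kg/day), which activates the GLP-1 receptor. Treatment started 2 weeks after STZ and lasted 8 weeks, except that the label of Lira mouse 3 gives 9 weeks. STZ diabetes is a chemical model without the autoimmunity of human type 1 diabetes. The comparison of T1D with NGT mice addresses the diabetic state. That of Lira with T1D mice addresses treatment with the drug, including any change in blood glucose that came with it. Both use the same 3 T1D libraries, so that a T1D library that stands apart enters both with opposite sign. The methods speak of 3 mice in a group, and the libraries are called mice 1 to 3 here, by the number in their label.

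The integrated stress response slows general protein synthesis when a kinase that senses amino acid shortage, unfolded protein, heme shortage or double-stranded RNA phosphorylates the initiation factor eIF2α. Translation of the transcription factor ATF4 then increases, and ATF4 switches on genes for amino acid supply, redox balance and, through CHOP (the product of *Ddit3*), cell death. In the skeleton ATF4 is known as a factor of osteoblast differentiation. Since ATF4 is controlled largely by translation, its messenger RNA level is only part of its regulation.

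The bone was cleaned of muscle before extraction, yet the 15 genes of a skeletal muscle list summed to between 101860 and 267704 CPM in a library. CPM, edgeR's depth-scaled count, is relative to the library total adjusted by the TMM factor. The 12 genes of an osteoblast and osteocyte list were all detected and summed to between 210 CPM (NGT mouse 2) and 5825 CPM (T1D mouse 1), led by *Col1a1*, the chain of type I collagen. In NGT mouse 2 the markers *Bglap*, *Sp7*, *Mepe* and *Sost* were at 0. Library totals were 13086373 to 16528394 counts, so that a count of 0 leaves room for 3 counts, which equal 0.163 to 0.237 CPM. This limit covers counting error only. T1D mouse 1 and Lira mouse 3 stood apart from the other libraries, with 476 and 441 genes over 2 times their level in every other library, against 2 to 83 genes in the remaining 7 libraries. *Atf3* was among the 476 genes and *Asns* among the 441. In whole tissue, fewer cells of a type and less RNA per cell cannot be told apart.

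Promoter sequence is shown for the 3 members whose levels differed most between mice of the same group, *Atf3*, *Chac1* and *Asns*, and for *Ddit3* and *Trib3*, whose levels moved together. Each run holds the 250 bases before the annotated start, 5′ to 3′ on the gene's strand, from RefSeq (GRCm38.p6). Capitals mark a match to TGATGNAA, the C/EBP-ATF response element that ATF4 and its C/EBP partners can bind, or to its reverse complement.

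Atf3, chr1:191183334-191183583, minus strand: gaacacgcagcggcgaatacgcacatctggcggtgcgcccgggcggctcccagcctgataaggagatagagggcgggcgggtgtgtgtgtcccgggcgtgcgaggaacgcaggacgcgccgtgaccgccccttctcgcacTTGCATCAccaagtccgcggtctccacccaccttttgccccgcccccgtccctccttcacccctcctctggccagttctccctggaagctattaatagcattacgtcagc
Chac1, chr2:119350992-119351241, plus strand: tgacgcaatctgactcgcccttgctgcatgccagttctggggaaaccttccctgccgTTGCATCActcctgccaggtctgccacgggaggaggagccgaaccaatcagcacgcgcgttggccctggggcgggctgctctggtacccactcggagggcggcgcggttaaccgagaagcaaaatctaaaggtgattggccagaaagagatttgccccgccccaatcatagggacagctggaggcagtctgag
Asns, chr6:7693210-7693459, minus strand: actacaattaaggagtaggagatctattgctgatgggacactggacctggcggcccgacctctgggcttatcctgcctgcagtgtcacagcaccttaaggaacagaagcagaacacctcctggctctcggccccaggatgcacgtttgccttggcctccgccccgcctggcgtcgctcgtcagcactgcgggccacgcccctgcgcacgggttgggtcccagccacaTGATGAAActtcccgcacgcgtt
Ddit3, chr10:127290543-127290792, plus strand: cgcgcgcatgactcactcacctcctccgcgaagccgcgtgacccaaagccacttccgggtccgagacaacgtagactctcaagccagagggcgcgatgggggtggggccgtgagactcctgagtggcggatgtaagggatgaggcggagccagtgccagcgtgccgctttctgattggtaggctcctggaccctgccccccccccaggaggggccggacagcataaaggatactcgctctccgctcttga
Trib3, chr2:152344061-152344310, minus strand: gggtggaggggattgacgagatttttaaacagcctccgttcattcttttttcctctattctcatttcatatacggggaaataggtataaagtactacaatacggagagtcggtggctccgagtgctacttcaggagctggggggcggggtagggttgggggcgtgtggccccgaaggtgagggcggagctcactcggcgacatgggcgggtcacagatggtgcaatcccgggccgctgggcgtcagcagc

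The letters TTGCATCA stood in the windows of *Atf3* and *Chac1*, with their first base 110 and 193 bases before the start, and TGATGAAA stood 23 bases before that of *Asns*. The 10 members had 12 windows, of which 4 held a match on either strand (*Asns*, *Atf3*, *Chac1* and *Fgf21*). Of the 32851 promoter windows of the mouse table, 3.45% did. The members were chosen as genes of this response, and sequence outside the 250 bases was not searched. The other motif searched, the ER stress element bound by ATF6, was found in 0 of the 12 member windows and in 0.113% of all windows. A match describes the letters of these windows and is not evidence of binding.

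The members fell into a wide range of levels. Per gene length, by the FPKM values the authors deposited, the mean over the 9 libraries was 163 for *Atf4*, 77.2 for *Atf5*, 26.0 for *Chac1*, 15.7 for *Ddit3* and 13.7 for *Atf3*. It was 5.60 for *Asns*, 1.09 for *Sesn2*, 0.978 for *Trib3*, 0.243 for *Gdf15* and 0.00778 for *Fgf21*. *Atf4* was above *Atf5* in every library, since its lowest FPKM was 141 and the highest of *Atf5* was 135. The ranges of all other neighbours in this order overlapped between libraries.

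*Atf4*, the central factor of the response, was among the steadier members. Its level was 187, 264 and 246 CPM in NGT mice 1 to 3, 228, 279 and 265 CPM in T1D mice 1 to 3 and 325, 246 and 228 CPM in Lira mice 1 to 3. The 3 groups overlapped, and the T1D mean was 1.11 times the NGT mean. In edgeR's quasi-likelihood fit the log2 fold change of T1D against NGT was 0.15 (SE 0.21, 95% interval -0.33 to 0.62, adjusted p = 0.984). For Lira against T1D it was 0.05 (SE 0.21, interval -0.42 to 0.52, adjusted p = 0.987). A 2-fold change of *Atf4* lies outside both intervals. In FPKM, the T1D libraries (188, 180 and 157) all lay above the NGT libraries (148, 153 and 141), with an exact permutation p = 0.1, the smallest that 3 against 3 allow. On that scale 7.25% of the 13960 genes did not overlap between T1D and NGT mice and 5.61% did not between Lira and T1D mice. FPKM are not TMM-scaled, and the separation was absent in TMM-scaled CPM (exact permutation p = 0.5).

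*Atf5*, a relative of ATF4 that is also controlled by translation and takes part in mitochondrial stress, was measured at 154, 164 and 88.3 CPM in NGT mice. It was at 187, 147 and 63.6 CPM in T1D mice and at 96.8, 153 and 115 CPM in Lira mice. Mouse 3 was the lowest of its group in NGT and T1D mice, and the groups overlapped throughout. The fitted log2 fold changes were -0.03 (SE 0.40) for T1D against NGT and -0.12 (SE 0.40) for Lira against T1D. In the RefSeq annotation *Atf5* overlaps *Il4i1b* and *Nup62*, and the strand setting of the counting is not given in the sources used here.

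*Atf3*, a stress-induced factor downstream of ATF4, varied most of all members. Its level was 7.17, 20.4 and 5.54 CPM in NGT mice, 109.5, 13.2 and 5.34 CPM in T1D mice and 45.4, 3.19 and 12.3 CPM in Lira mice. T1D mouse 1 and Lira mouse 1 were high, and the other 4 mice of these groups lay within or below the NGT range of 5.54 to 20.4 CPM. The log2 fold change of T1D against NGT was 1.95 (SE 1.23, interval -0.84 to 4.75, adjusted p = 0.977). With the replicate number as a block it was 0.78, and 0.98 with only the NGT and T1D libraries, below *Asns* (0.91 and 1.12). *Atf3* was higher in the T1D mouse of 1 of the 3 same-numbered pairs, with differences of 3.76, -0.59 and -0.05 on the log2(CPM + 1) scale. Without T1D mouse 1 it was -0.25. Lira against T1D gave -1.07 (SE 1.19, adjusted p = 0.978), and 1.13 without T1D mouse 1. The direction of both differences thus rested on 1 library. A list of 12 immediate-early genes, which respond to handling and tissue injury, summed to 349 CPM in T1D mouse 1 and to 297 to 419 CPM over all libraries. That sum is carried mostly by *Nr4a1*, *Jun* and *Dusp1*, and 4 of the 11 tested genes of the list were highest in T1D mouse 1, among them *Fos* at 19.0 CPM. The osteoblast and osteocyte, macrophage and osteoclast lists had their highest values in that library, and the part of these lists in the *Atf3* level was not tested.

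*Ddit3* encodes CHOP, the factor that couples prolonged stress to cell death. It was measured at 17.2, 14.1 and 12.3 CPM in NGT mice, 20.8, 13.9 and 13.1 CPM in T1D mice and 10.9, 28.1 and 16.5 CPM in Lira mice. The highest and the lowest libraries were both Lira mice, and the groups overlapped. The log2 fold change was 0.13 (SE 0.35, interval -0.66 to 0.92) for T1D against NGT and 0.22 (SE 0.35, interval -0.57 to 1.01) for Lira against T1D. The deposited count of *Ddit3* was not a whole number in 7 of 9 libraries, as happens where reads match more than 1 gene. The RefSeq annotation places *Mars1* and *Mbd6* across it, so that reads of these genes cannot be told apart from its own where strand was not used.

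Among the targets, *Trib3*, a pseudokinase that damps ATF4 and AKT signaling, was low, with 7 to 46 counts per library. It was at 2.22, 1.86 and 0.554 CPM in NGT mice, 2.50, 1.44 and 1.93 CPM in T1D mice and 1.36, 3.58 and 2.18 CPM in Lira mice. NGT mouse 3 was the lowest and Lira mouse 2 the highest, and the groups overlapped. The log2 fold change was 0.34 (SE 0.57) and 0.27 (SE 0.56) for T1D against NGT and for Lira against T1D.

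*Chac1*, which breaks down glutathione, reached a high level in 1 mouse of each group. It was measured at 28.7, 67.8 and 25.9 CPM in NGT mice, 8.97, 14.9 and 84.8 CPM in T1D mice and 128.6, 10.6 and 15.2 CPM in Lira mice. The high mouse was NGT mouse 2, T1D mouse 3 and Lira mouse 1, and these were not the mice in which *Asns* was highest. The log2 fold change of T1D against NGT was -0.17 (SE 1.08, interval -2.64 to 2.30), and that of Lira against T1D was 0.51 (SE 1.09, interval -1.97 to 2.98). Without Lira mouse 1 the value for Lira against T1D was -1.49. A change of 2-fold in either direction lies inside both intervals, so that these libraries bound *Chac1* only loosely.

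*Asns* encodes asparagine synthetase, which makes asparagine from aspartate and glutamine and is a classical amino acid response gene. It was measured at 12.2, 2.01 and 2.77 CPM in NGT mice, 15.5, 3.86 and 12.6 CPM in T1D mice and 6.57, 2.65 and 31.3 CPM in Lira mice. Mouse 2 was the lowest of each group, and Lira mouse 3 was the highest of all. The log2 fold change was 0.91 (SE 0.99, interval -1.35 to 3.17, adjusted p = 0.981 in edgeR) for T1D against NGT and 0.35 (SE 0.98, adjusted p = 0.987) for Lira against T1D. Without NGT mouse 1 the former was 2.15, and without Lira mouse 3 the latter was -1.21. Same-numbered NGT and T1D mice deviated together across genes and were therefore also compared in pairs. As the pairing was taken from these same libraries, the paired values are a description. *Asns* was higher in the T1D mouse of all 3 pairs, by 0.32, 0.69 and 1.85 on the log2(CPM + 1) scale (mean 0.96 ± 0.80, SD, n = 3). *Atf4* (by 0.28, 0.08 and 0.10) was also higher in the T1D mouse of all 3 pairs. Of the 8 tested members these 2 were so, beside 19.2% of all tested genes. For *Gdf15*, which was not tested, the differences were 0.53, 0.09 and 0.47, at 15 counts or fewer. Its mice 2 had 0 (NGT) and 1 (T1D) counts, which cannot be told apart. *Ddit3*, *Trib3* and *Sesn2* were higher in 2 pairs, and *Atf3*, *Atf5* and *Chac1* in 1. With the replicate number as a block over all 9 libraries, edgeR gave *Asns* a log2 fold change of 0.91 and an unadjusted p of 0.249. With the block and only these 6 libraries, edgeR gave *Asns* 1.12, an unadjusted p of 0.0333 and an adjusted p of 0.319. *Atf4* had a log2 fold change of 0.16 and an adjusted p of 0.643 there. In that fit 14.0% of all tested genes had an unadjusted p under 0.05. The summed osteoclast list was also higher in the T1D mouse of each pair (167 and 375 CPM, 10.1 and 96.7 CPM, 57.6 and 296 CPM), and so was the macrophage list (141 and 985 CPM, 35.6 and 91.1 CPM, 55.3 and 133 CPM).

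*Sesn2*, a leucine sensor that restrains mTORC1, was the steadiest member relative to other genes, although low. It was at 2.35, 2.86 and 2.30 CPM in NGT mice, 2.34, 2.88 and 2.80 CPM in T1D mice and 3.21, 2.88 and 4.36 CPM in Lira mice. The Lira libraries all lay above the T1D libraries, by a margin that disappears in the rounding (lowest Lira 2.882 CPM, highest T1D 2.881 CPM), with an exact permutation p = 0.1. In FPKM the 2 groups overlapped. The log2 fold change of Lira against T1D was 0.38 (SE 0.29, interval -0.28 to 1.05, adjusted p = 0.978 in edgeR), and that of T1D against NGT was 0.09 (SE 0.29).

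The secreted members were near or below the detection limit. *Gdf15*, a stress cytokine that acts on the hindbrain, had 4, 0 and 2 counts in NGT mice, 15, 1 and 9 counts in T1D mice and 0, 1 and 3 counts in Lira mice. The group sums were 6, 25 and 4 counts, and 24 of the 25 counts in the T1D group came from mice 1 and 3. The T1D and NGT groups overlapped (exact permutation p = 0.3), as did Lira and T1D mice (exact permutation p = 0.3). Where the filter was lifted, edgeR's adjusted p for *Gdf15* was 0.935 and 0.938 in the 2 comparisons. *Fgf21*, a hormone mainly of liver that is induced by ATF4, had 1 count in NGT mouse 2 and 0 counts in the other 8 libraries. Each of these zeros allows up to 3 counts, so that *Fgf21* was not detectable at this depth rather than shown to be absent.

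**Figure D1:**
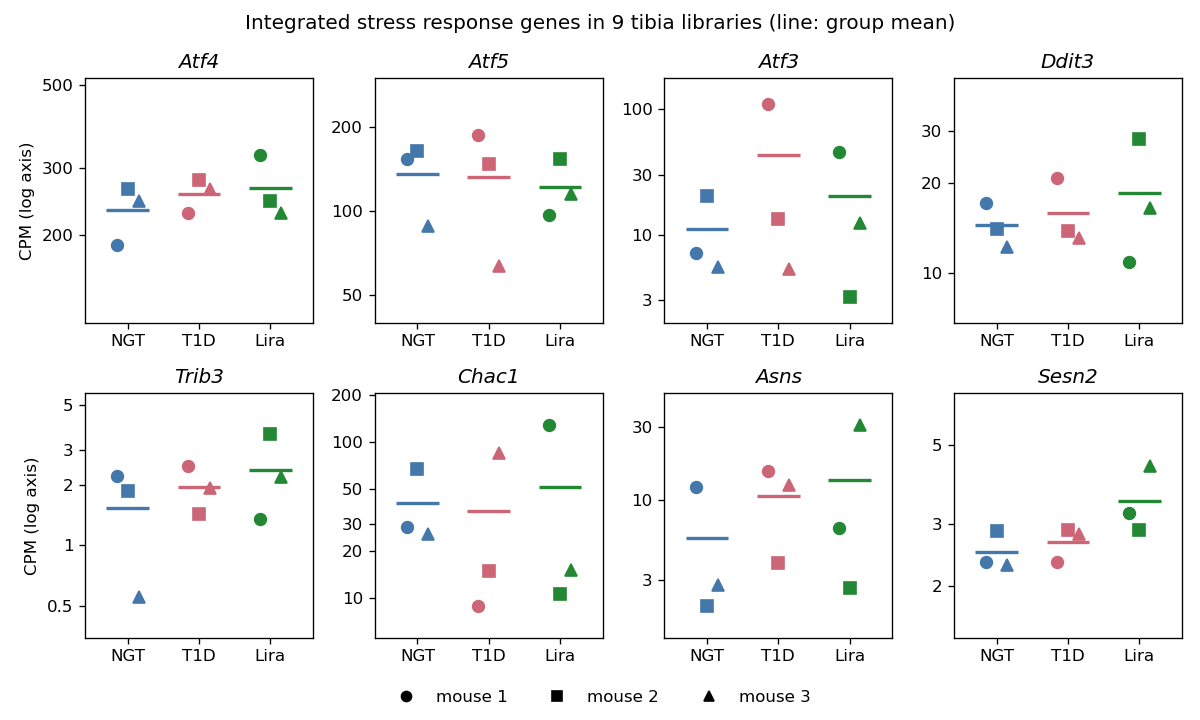
Levels of the 8 tested genes in CPM on log axes, with 1 symbol per library (circle mouse 1, square mouse 2, triangle mouse 3) and a line at each group mean. *Atf4* stays between 187 and 325 CPM, whereas *Atf3*, *Chac1* and *Asns* spread over more than 10-fold, with the high libraries divided among the groups.

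Across the members, 0 of the 8 tested passed an adjusted p under 0.05 with a fold change over 2 in either comparison, and 0 had an unadjusted p under 0.05 (edgeR). Of all tested genes, 0% passed the adjusted threshold in both comparisons, and the unadjusted threshold was passed by 3.95% for T1D against NGT and 3.33% for Lira against T1D. DESeq2 called 0 of the 13960 genes for T1D against NGT and 1 gene, no member, for Lira against T1D, with 697 and 620 genes at an unadjusted p under 0.05. Fitted values were positive for 6 and negative for 2 members in each comparison. The median log2 fold change of the members was 0.14 for T1D against NGT and 0.24 for Lira against T1D, beside 0.02 and 0.04 over all tested genes. Over the alternative settings these medians ran from 0.03 (without NGT mouse 3) to 0.33 (without NGT mouse 2) and from -0.02 (without Lira mouse 2, 4 of 8 positive) to 0.37 (without T1D mouse 1). Groups did not overlap in CPM for 0 members in T1D against NGT (8.6% of all tested genes) and for 1 member, *Sesn2*, in Lira against T1D (7.13% of all tested genes). The lowest unadjusted p was 0.148 (*Atf3*) and 0.225 (*Sesn2*), with an adjusted p of 0.977 and 0.978. Adjusted p-values were 0.977 to 0.997 for T1D against NGT and 0.978 to 0.987 for Lira against T1D.

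**Figure D2:**
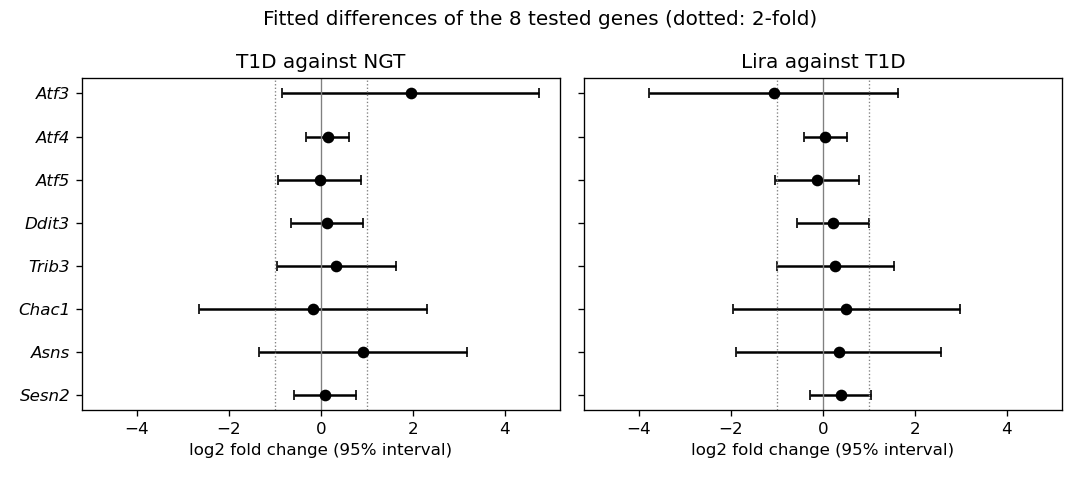
Fitted log2 fold change (points) with its 95% interval (bars) for the 8 tested genes, T1D against NGT on the left and Lira against T1D on the right, with 3 libraries per group. Every interval includes 0, and those of *Chac1* and *Asns* reach past 2-fold on both sides in both panels, whereas those of *Atf4* stay inside it.

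The members differed widely in how far mice of the same group lay apart. The SD within groups of log2(CPM + 1) was 1.67 for *Atf3*, 1.50 for *Chac1* and 1.26 for *Asns*, against a median of 0.31 over all 13960 genes. These are percentiles 98.7, 97.9 and 96.1 of all tested genes. *Atf5* (0.58), *Trib3* (0.45) and *Ddit3* (0.44) lay between percentiles 70.1 and 80.9. Among genes of like level, *Atf5* was at percentile 91.5, *Ddit3* at 77.6 and *Trib3* at 47.2. *Atf4* (0.23) and *Sesn2* (0.17) were at percentiles 28.1 and 12.3. The highest level was 34.3 times the lowest for *Atf3*, 15.6 times for *Asns* and 14.3 times for *Chac1*, and 1.73 times for *Atf4*. As a description, these 3 most variable members are among the 4 with a TGATGNAA match, and the other, *Fgf21*, had 1 count in all.

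The variable members did not vary together. *Atf3* was highest in T1D mouse 1, *Chac1* in Lira mouse 1 and *Asns* in Lira mouse 3. Over the 9 libraries, 14 of the 28 pairs of members had a positive and 14 a negative Pearson r of log2(CPM + 1), with a median of 0.01. Each member's r with the mean of the others lay between -0.37 (*Chac1*) and 0.43 (*Trib3*).

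The closest pair was *Ddit3* and *Trib3*, CHOP and a target it shares with ATF4. Their Pearson r was 0.83 (exact permutation p = 0.00643, adjusted 0.180 over 28 pairs) and their Spearman rho 0.93 (exact permutation p = 0.00075, adjusted 0.021). With the 2 libraries farthest from the median of *Ddit3* left out, r was 0.67, and on deviations from the group means it was 0.83. Without T1D mouse 1 and Lira mouse 3 it was 0.82 (n = 7). Lira mouse 2 was the highest and T1D mouse 1 the next for both genes. *Ddit3* and *Chac1* ran opposite to each other, with r = -0.74 (exact permutation p = 0.0201, adjusted 0.282) and rho = -0.72 (exact permutation p = 0.0369, adjusted 0.258). The r was -0.61 without the 2 extreme libraries and -0.75 on deviations. This pair did not pass the adjustment. By Spearman's rho *Ddit3* also ran with *Atf5* (rho = 0.73, r = 0.60) and opposite to *Atf4* (rho = -0.73, r = -0.52), each at an exact permutation p = 0.0311 for rho (adjusted 0.258). Their r, with exact permutation p = 0.0868 and 0.157 (adjusted 0.697 and 0.732), was 0.57 and -0.47 without the 2 extreme libraries.

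**Figure D3:**
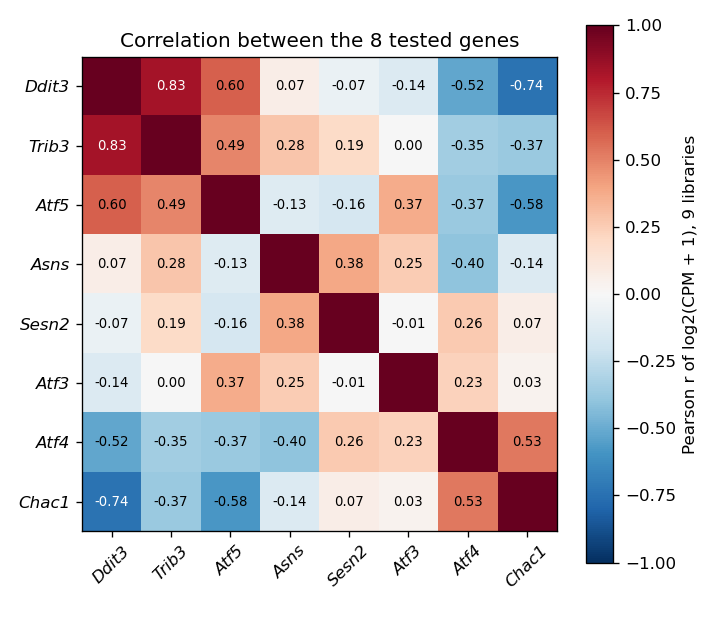
Pearson r of log2(CPM + 1) over the 9 libraries for every pair of the 8 tested genes, red positive and blue negative. *Ddit3* and *Trib3* have the highest value (0.83), and *Ddit3* and *Chac1* the lowest (-0.74).

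**Figure D4:**
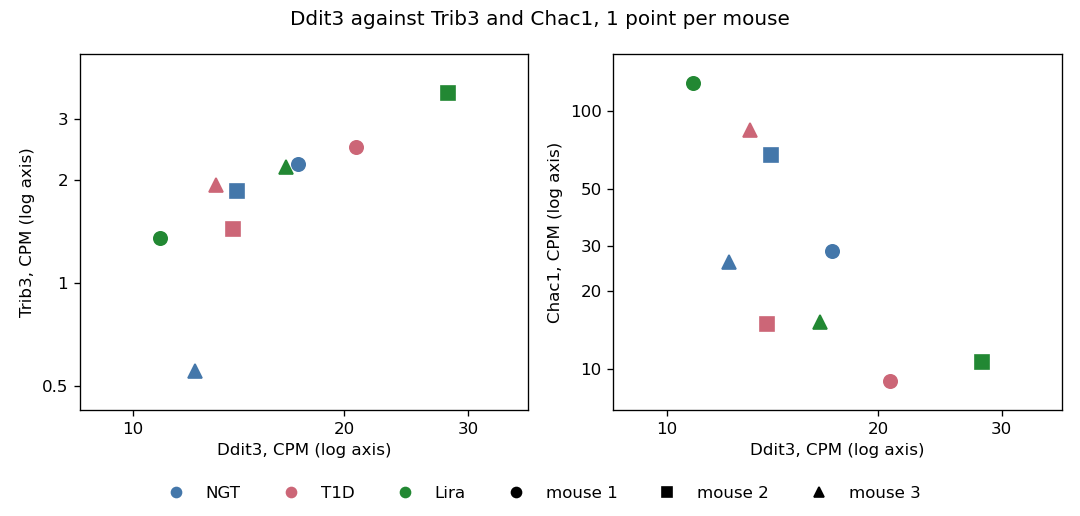
*Trib3* (left) and *Chac1* (right) against *Ddit3*, in CPM on log axes, with 1 point per library, coloured by group and shaped by mouse number. *Trib3* is highest where *Ddit3* is highest, in Lira mouse 2, and *Chac1* is highest where *Ddit3* is lowest, in Lira mouse 1.

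*Asns* ran with the summed markers of several cell types across the libraries, though not with the adipocyte list (r = 0.26, rho = 0.28). The summed osteoclast list (8 genes, led by *Mmp9*, *Acp5* and *Ctsk*) was 167, 10.1 and 57.6 CPM in NGT mice, 375, 96.7 and 296 CPM in T1D mice and 140, 21.7 and 349 CPM in Lira mice. Libraries low in these markers were low in *Asns*. Pearson r was 0.89 (exact permutation p = 0.000909, adjusted 0.0655 over 72 relations of 8 members with 9 lists) and Spearman rho 0.98 (exact permutation p = 4.96e-05, adjusted 0.00357). The r was 0.93 without the 2 libraries farthest from the median of the list, 0.91 on deviations from the group means and 0.89 without T1D mouse 1 and Lira mouse 3. Erythroid markers, led by the globins *Hba-a1*, *Hbb-bs* and *Hba-a2*, gave r = 0.82 and rho = 0.77 with *Asns* (adjusted exact permutation p = 0.132 and 0.257), and the osteoblast and osteocyte list gave 0.66 and 0.80 (0.415 and 0.199). Neutrophil markers, led by *Ngp*, *S100a9* and *S100a8*, gave r = 0.85 and rho = 0.88 with *Asns* (adjusted exact permutation p = 0.0693 and 0.0738). Macrophage markers, led by the complement genes *C1qa*, *C1qb* and *C1qc*, gave r = 0.71 and rho = 0.92 (adjusted exact permutation p = 0.270 and 0.0472). For skeletal muscle r was -0.69 and rho -0.58 (adjusted exact permutation p = 0.415 and 0.664). The permutations, here and between members, treat the 9 libraries as exchangeable. Since same-numbered NGT and T1D mice deviated together, and mouse 2 was the lowest of each group for both *Asns* and the osteoclast list, these p-values can be too small. These lists correlate with *Asns* over the same 9 libraries, and their part in the *Asns* level was not tested.

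**Figure D5:**
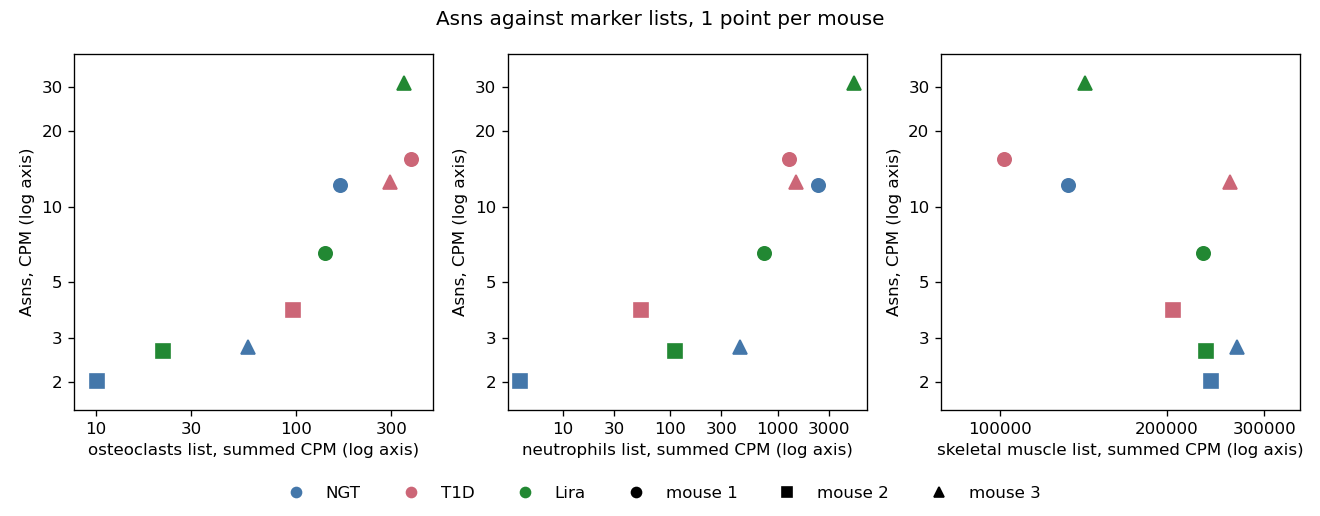
*Asns* in CPM against the summed CPM of the osteoclast, neutrophil and skeletal muscle lists, all on log axes, with 1 point per library. *Asns* is lowest (2.01 CPM) where the osteoclast and neutrophil sums are lowest (10.1 and 4.02 CPM, NGT mouse 2). It is high in libraries with the lowest muscle sums, but also in T1D mouse 3 (12.6 CPM), whose muscle sum is high (260425 CPM).

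Of the 72 relations, 0 passed the adjustment by Pearson's r and 2 by Spearman's rho, both of *Asns*, while 8 had an unadjusted p under 0.05 by Pearson's r. *Atf3* had r = 0.80 and rho = 0.72 with the adipocyte list (adjusted exact permutation p = 0.132 and 0.379). That r fell to 0.35 without the 2 libraries farthest from the median of the list, so that the relation rests on those libraries. *Chac1* had no relation with an unadjusted p under 0.05, the highest r being 0.54 with skeletal muscle (exact permutation p = 0.131).

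Upstream of the members, the list of eIF2α kinases, phosphatase subunits and eIF2 and eIF2B subunits showed no gene past either threshold in edgeR. Of its 16 genes, 7 had a positive fitted value for T1D against NGT (median log2 fold change -0.09) and 11 for Lira against T1D (median 0.16). Leaving out T1D mouse 1 gave 9 positive genes in both, with medians of 0.03 and 0.05. With library size in place of TMM, 9 genes were also positive for T1D against NGT (median 0.01). *Eif2b4*, a subunit of the exchange factor that phosphorylated eIF2α blocks, had the lowest p in both, with log2 fold changes of -0.47 (SE 0.23) and 0.44 (SE 0.23). *Ppp1r15a*, which encodes the GADD34 subunit that reverses the phosphorylation, was at 72.0, 46.1 and 58.1 CPM in NGT mice. It was at 48.9, 80.9 and 117 CPM in T1D mice and at 167, 58.9 and 176 CPM in Lira mice, where mice 1 and 3 were above all other libraries. Its log2 fold changes were 0.49 (SE 0.44) and 0.71 (SE 0.44). The remaining named genes were *Eif2b5* (-0.29) in T1D against NGT and the heme-sensing kinase gene *Eif2ak1* (0.37) in Lira against T1D.

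Factors that pair with ATF4 and its further targets gave positive fitted values for 9 of 13 genes in T1D against NGT (median 0.31) and for 10 of 13 in Lira against T1D (median 0.25). The median for T1D against NGT was 0.10 without T1D mouse 1 or without NGT mouse 1, and without Lira mouse 1 that for Lira against T1D was -0.03, with 5 of 13 positive. *Cebpd*, a C/EBP factor of acute inflammation, was at 33.3, 54.9 and 37.3 CPM in NGT mice, 70.5, 69.8 and 87.4 CPM in T1D mice and 248, 78.4 and 77.8 CPM in Lira mice. T1D and NGT mice did not overlap for this gene (log2 fold change 0.86, SE 0.45, adjusted p = 0.977 in edgeR). Of all tested genes, 8.6% did not overlap in T1D against NGT and 7.13% in Lira against T1D, in either direction. These shares apply to every gene without overlap named in the lists. *Nupr1*, a stress-induced chromatin protein, had an unadjusted edgeR p of 0.0405 for Lira against T1D (-1.34, SE 0.56, adjusted p = 0.978). Its T1D values were 42.9, 13.7 and 9.40 CPM, so that T1D mouse 1 was the highest. *Jdp2* (0.57) and *Cebpg* (-0.29) in T1D against NGT and *Cebpd* (0.83) and *Sesn1* (0.98) in Lira against T1D were the other named genes. *Sesn1*, a paralog of *Sesn2*, was at 342 CPM in Lira mouse 1 and at 53.4 to 119 CPM in the other libraries.

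Enzymes of amino acid and one-carbon metabolism, the downstream program to which *Asns* belongs, were positive for 9 of 14 genes (median 0.28) in T1D against NGT and for 10 of 14 (median 0.21) in Lira against T1D. Leaving out 1 mouse moved the former median from 0.07 (NGT mouse 3) to 0.69 (NGT mouse 1). The latter was -0.41 without Lira mouse 3 and -0.02 without Lira mouse 1, with 6 of 14 positive each time. *Got1*, the cytosolic aspartate aminotransferase, was lower in all T1D than in all NGT mice (304 to 402 and 469 to 745 CPM), with a log2 fold change of -0.73 (SE 0.40). For Lira against T1D it had 1.00 (SE 0.40), an unadjusted edgeR p of 0.0349 and an adjusted p of 0.978, and Lira mouse 3 (347 CPM) lay in the T1D range. *Pycr1*, of proline synthesis, ran the other way with 0.67 (SE 0.32) and -0.61 (SE 0.32), and *Shmt2*, of mitochondrial serine use, had -0.21 and 0.29. Without overlap, *Pycr1* was lower in Lira (4.35 to 4.71 CPM) than in T1D mice (4.98 to 7.88 CPM). *Shmt2* was lower in T1D (27.1 to 34.2 CPM) than in NGT mice (34.5 to 40.1 CPM), also without overlap. Of 9 tested amino acid transporters, 9 were positive in T1D against NGT (median 0.34) and 6 in Lira against T1D (median 0.33). The former median ran from 0.15 (6 positive, without T1D mouse 1) to 1.00 (without NGT mouse 1), and without Lira mouse 3 the latter was -0.42, with 1 of 9 positive. *Slc3a2*, the heavy chain of several transporters, did not overlap between T1D (62.4 to 72.5 CPM) and NGT mice (53.9 to 58.2 CPM), at a log2 fold change of 0.23 (SE 0.17). *Slc7a1* (0.55) and *Slc1a4* (0.90) followed in T1D against NGT, and *Slc43a1* (1.09), *Slc1a4* (-0.67) and *Slc38a1* (0.75) were named in Lira against T1D.

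The cytosolic aminoacyl-tRNA synthetases, only some of which are known ATF4 targets, were positive for 3 of 20 genes in T1D against NGT (median -0.15). In Lira against T1D 17 of 20 were positive (median 0.16). The comparisons share the T1D libraries, and without T1D mouse 1 the counts were 11 of 20 and 12 of 20, with a median of 0.01 in both. *Aars* had the lowest p in both, with log2 fold changes of -0.41 (SE 0.22) and 0.50 (SE 0.22, adjusted p = 0.978 in edgeR). *Mars* (-0.32) and *Iars* (-0.30) came next in T1D against NGT, and *Farsa* (0.34) and *Vars* (0.45) in Lira against T1D. *Farsa* did not overlap between Lira (22.1 to 23.0 CPM) and T1D mice (16.1 to 19.9 CPM).

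The mitochondrial stress and chaperone list, whose DELE1 protein relays mitochondrial damage to eIF2α, was positive for 1 of 11 genes in T1D against NGT (median -0.29) and for 10 of 11 in Lira against T1D (median 0.25). Over the alternative settings the former count was 1 to 2 and the latter 7 to 11, and without T1D mouse 1 the medians were -0.13 and 0.16 (the former also -0.13 without NGT mouse 2). T1D mouse 1, the library with the lowest skeletal muscle sum (101860 CPM), was the lowest library for 9 of the 11 genes. The other libraries with low muscle sums, NGT mouse 1 and Lira mouse 3, also had the lowest *Dele1* and *Lonp1* of their groups, and the part of muscle in these values was not tested. *Lonp1*, a mitochondrial protease, had -0.43 (SE 0.23) and 0.43 (SE 0.23), and *Dele1* had -0.45 (SE 0.25) and 0.47 (SE 0.25). *Hspa9*, a mitochondrial chaperone, did not overlap between T1D (422 to 581 CPM) and NGT mice (596 to 783 CPM). In the fit reported, 0 genes of either list had an unadjusted edgeR p under 0.05.

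In the unfolded protein response of the endoplasmic reticulum, which reaches eIF2α through the kinase PERK, 19 of 26 tested genes were positive for T1D against NGT (median 0.22) and 12 of 26 for Lira against T1D (median -0.05). Leaving out T1D mouse 1 turned both, to 12 of 26 (median -0.03) and 18 of 26 (median 0.06). *Hspa5*, the main chaperone of that compartment, was at 220, 215 and 187 CPM in NGT mice and 274, 241 and 250 CPM in T1D mice, without overlap, at a log2 fold change of 0.30 (SE 0.15, adjusted p = 0.977 in edgeR). *Manf* (0.65) and *Pdia6* (0.42) followed. In this list 3 genes were higher and 1 was lower in T1D than in NGT mice without overlap, beside 8.6% of all tested genes in either direction. The lower gene was *Syvn1* (T1D 27.8 to 34.6 CPM, NGT 35.4 to 38.4 CPM). *Syvn1*, a ubiquitin ligase that removes misfolded proteins, had an unadjusted edgeR p of 0.0141 for Lira against T1D (0.47, SE 0.15, adjusted p = 0.978) and did not overlap (36.2 to 46.8 against 27.8 to 34.6 CPM). *Ern1*, the sensor IRE1, did not overlap either (0.75, SE 0.41), and *Pdia6* had -0.37.

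Cell death genes linked to CHOP were positive for 7 of 7 genes in T1D against NGT (median 0.24) and for 2 of 7 in Lira against T1D (median -0.07). Without T1D mouse 1 these were 5 of 7 (median 0.28) and 4 of 7 (median 0.07), and without Lira mouse 2 the latter were 4 of 7 (median 0.12). *Casp12*, a caspase of the endoplasmic reticulum, was at 29.2, 15.6 and 12.7 CPM in T1D mice and 8.64, 10.8 and 10.7 CPM in Lira mice, without overlap at a log2 fold change of -0.93 (SE 0.32). Its unadjusted edgeR p was 0.0186 and its adjusted p 0.978. For T1D against NGT it had 0.41 (SE 0.32), *Bcl2l11* had 0.42 and *Pmaip1* had 1.23 (SE 1.05). *Bcl2l1* (0.52) and *Tnfrsf10b* (-0.20) were the other genes named in Lira against T1D.

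The p53 targets, among which p53 also induces *Sesn2* and *Gdf15*, were positive for 5 of 10 genes (median 0.08) and 6 of 10 genes (median 0.09), and without T1D mouse 1 the medians were -0.09 and 0.01. With library size in place of TMM the latter was -0.03, with 3 of 10 positive, and without Lira mouse 2 it was -0.0027, with 5 of 10 positive. *Eda2r* did not overlap between T1D (28.4 to 57.6 CPM) and NGT mice (15.4 to 22.3 CPM), at a log2 fold change of 1.11 (SE 0.49, adjusted p = 0.977 in edgeR). *Cdkn1a*, the cell cycle inhibitor p21, had 1.16 (SE 0.53) for Lira against T1D, with 685 CPM in Lira mouse 1. *Mdm2* (-0.29), *Bbc3* (0.53), *Trp53inp1* (0.53) and *Bax* (-0.39) were the other named genes. The receptors of FGF21 and GDF15 were positive for 4 of 6 tested genes (median 0.11) and 2 of 6 genes (median -0.04). Both medians turned without T1D mouse 1, to -0.13 and 0.20, and the former also without NGT mouse 3, to -0.07 with 1 of 6 positive. *Fgfr2* had 0.91 (SE 0.97) and -0.70 (SE 0.97), *Fgfr3* had 0.16 and 0.19, *Ret* had -0.16 in T1D against NGT and *Klb*, the co-receptor of FGF21, had -0.48 in Lira against T1D. In the paired fit of NGT and T1D mice, where 14.0% of all tested genes had an unadjusted edgeR p under 0.05, more genes of the lists did so too. They were 4 of 26 in the unfolded protein response, 3 of 13 ATF4 partners, 3 of 14 enzymes, 3 of 11 mitochondrial genes, 3 of 10 p53 targets, 1 of 20 synthetases and 1 of 16 in the eIF2α list. The other 3 lists had 0. In every list and every setting tried, 0 genes passed the adjusted threshold with a fold change over 2.

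The genes whose pattern was most like the members' mean z-score over the 9 libraries were *Zdhhc24* (r = 0.94), *Myom3* (0.93), *Myoz2* (0.92), *Dazap2* (0.91) and *Fzd5* (0.91), out of 10407 genes with a mean of at least 5 CPM over the libraries. *Myom3* and *Myoz2* encode sarcomere proteins. *Myom3* was lowest in NGT mouse 3 (19.1 CPM) and highest in T1D mouse 1 (176 CPM). The mean z-score itself was lowest in NGT mouse 3 (-0.84) and highest in T1D mouse 1 (0.37). As the members hardly correlated with each other, this mean describes them only loosely.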

How the data were processed

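RNA of 9 tibiae (3 NGT, 3 T1D and 3 Lira) was sequenced after oligo(dT) enrichment. The authors deposited expected counts per gene, which are not normalized, and FPKM, scaled by the authors for gene length and library total. Of the expected counts, 30.2% were not whole, and they were rounded. The submitters' processing notes name build mm9. The aligner, counter, annotation and strand setting are not given in the sources used here. The authors' group means were not used, and 0 sample columns lacked a sample.

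Genes reaching 10 counts in 3 or more of the 9 libraries were fitted in R 4.3.3 with edgeR 4.0.16 (TMM, glmQLFit and glmQLFTest on 3 group means, two-sided, Benjamini-Hochberg over 13960 genes). Calls required an adjusted p under 0.05 and a fold change over 2. The fit was tested on simulated data. Single values and correlations were tested by two-sided exact permutation on log2(CPM + 1), with a pseudocount of 1 (Python 3.11.15, numpy 2.4.6, scipy 1.17.1), and plotted with matplotlib 3.10.9. Correlations with marker lists used the log2 of the summed CPM plus 1.

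Deviations from the group means, across genes, correlated at r = 0.60, 0.64 and 0.28 between same-numbered NGT and T1D mice, so the numbers were taken to pair these groups. For T1D and Lira mice they were -0.29, 0.61 and 0.25, and these were not taken as pairs. Differently numbered NGT and T1D mice gave -0.71 to 0.21, the highest for NGT mouse 3 with T1D mouse 2. Over all groups the highest r was that of NGT mouse 1 with Lira mouse 3 (0.78). The pairing comes from these same libraries, as the labels give no shared litter or day. Paired values are therefore a description, and the block stayed an alternative.

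Alternatives were DESeq2 1.42.0, library size in place of TMM, no filter, only the 2 groups compared, the replicate block, limma 3.58.1 (F test over the 3 groups), FPKM and leaving out each mouse. Leaving libraries out of the correlations was added after seeing the data. The members and gene lists were chosen with earlier results of these data known. All members were named, and of each list the 3 genes with the lowest p in each comparison. For likeness the 5 highest r with the members' mean z-score were named, and of each marker list at most the 3 most abundant genes. *Bglap*, *Sp7*, *Mepe*, *Sost* and *Fos* were chosen after their values were seen. Promoters came from RefSeq (GRCm38.p6), where all 10 members matched by gene ID. The result of 1 marker list is not reported here.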

Additional observations from a re-analysis of the deposited data

How the results depend on the processing

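In the alternatives that gave an adjusted p, 0 members passed its threshold in either comparison. DESeq2 gave *Chac1* no p in either, and FPKM values have no adjusted p. With the replicate block and only the 2 groups compared, 1 member (*Asns*) had an unadjusted p under 0.05 for T1D against NGT. The fit reported had 0 such members. With the block and these 2 groups, 14.0% of all tested genes passed the same unadjusted threshold. The block changed no member's call. Of the members' fold changes in alternatives that kept all mice of the groups compared, 108 kept their sign and 4 reversed. With library size in place of TMM, *Atf5* was 0.10 for T1D against NGT and *Atf4* -0.046 for Lira against T1D. *Asns* for Lira against T1D was -0.15 with the replicate block in the 2 groups and -0.10 with limma. In FPKM, the group means of *Atf5* were 84.1 for T1D and 78.9 for NGT mice and those of *Atf4* 168 for Lira and 175 for T1D mice, also opposite in direction to the fit reported. Library size moved the median of all genes from 0.02 to 0.09 and from 0.04 to -0.05, and the cause of the other reversals was not tested.

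Leaving out 1 mouse reversed 19 values and kept 77. For T1D against NGT the log2 fold change ranged from -0.25 to 2.75 for *Atf3*, -0.36 to 0.31 for *Atf5*, -0.10 to 0.27 for *Ddit3*, -0.057 to 0.70 for *Trib3* and -1.78 to 0.41 for *Chac1*. For Lira against T1D it ranged from -2.46 to 1.13 for *Atf3*, -0.12 to 0.15 for *Atf4*, -0.46 to 0.21 for *Atf5* and -0.21 to 0.48 for *Ddit3*. It also ranged from -0.14 to 0.55 for *Trib3*, -1.49 to 2.11 for *Chac1* and -1.21 to 0.83 for *Asns*. *Sesn2* kept a positive sign (0.03 to 0.20 and 0.19 to 0.50). Where a mouse was left out, its group kept 2 libraries. The depth limits *Trib3*, *Gdf15* and *Fgf21* most.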

Other observations

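Genes that followed single members across the 9 libraries were looked up after the members' values were seen, and are given as descriptions. Of the members looked up (*Atf3*, *Chac1*, *Asns*, *Ddit3* and *Trib3*), *Asns* was followed most closely. Its closest genes were *Tubb5*, a tubulin (r = 0.99, 45.2 to 233 CPM), *Ankrd13a* (0.99) and *Carhsp1* (0.99). They came out of 10412 genes with a mean of at least 5 CPM. *Chac1* was followed by *D430042O09Rik* (0.92), *Trpm7* (0.91), *Taf8* (0.91) and *Zfp738* (0.91), and as the fifth by *Pdk4* (0.90), which limits glucose oxidation and ran from 297 to 6029 CPM. *Atf3* was followed by *Nsmce3* (0.93), *Tgif1* (0.93), *Rcan1* (0.91) and *Hspa1b*, an inducible heat shock chaperone (0.91, 3.48 to 43.4 CPM). *Ddit3* was followed by *Timm8a1* (0.98), a mitochondrial import chaperone. For *Trib3* the closest gene was *Plbd1* (0.90), and *Ddit3* ranked 20 of 10413 genes.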
